A study of Mus musculus with 7 samples.

Results

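The red cell membrane skeleton was examined in erythroblasts and progenitors of mouse fetal liver through 8 genes chosen by name: the spectrin gene Sptb, the ankyrin gene Ank1, the adducin genes Add1 and Add2, the protein 4.1 gene Epb41, the protein 4.2 gene Epb42, the dematin gene Dmtn and the tropomodulin gene Tmod1. Of these 8 genes, 5 had listed coding exons in the deposited expression table of 5194 genes (Sptb, Ank1, Add1, Add2 and Epb41). Epb42, Dmtn and Tmod1 were not listed there and were not analysed here. Both groups came from E13.5 fetal liver of mice whose Klf1 carried a hemagglutinin tag, and no treatment was given. Erythroblasts were sorted as cells that carry the red cell antigen Ter119 together with CD71, which is the receptor for transferrin. Progenitors were sorted as Ter119-negative cells, with and without CD71, and therefore pool cells of both CD71 states. No mice without the tag were among the samples. The 7 samples comprised 3 RNA libraries (2 of erythroblasts and 1 of progenitors) and, for each stage, 1 chromatin immunoprecipitation (ChIP) library of EKLF, the erythroid transcription factor encoded by Klf1, with 1 input library. The files give 1 column of exon coverage and 1 pooled peak list per stage, so every difference below lacks a replicate check and carries no p-value.

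The membrane skeleton is a net of spectrin tetramers under the red cell membrane, tied to short actin filaments at junctions and to membrane proteins at anchoring points. Ankyrin and protein 4.2 anchor spectrin to the anion exchanger, while protein 4.1, adducin, dematin and tropomodulin act at the actin junctions. Inherited loss of spectrin or ankyrin is known to cause spherocytosis, and loss of protein 4.1 to cause elliptocytosis. EKLF is known in mice as an activator of genes for this skeleton.

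Promoter sequences were searched for CACCC-type motifs, which EKLF binds. Whether a match bears on the RNA differences was not tested. RefSeq sequences of build GRCm38.p6 matched 4 of the 5 listed genes (Sptb, Add1, Add2 and Epb41), with 6 start sites in all, of which 3 belong to Epb41. Each line gives the 250 bases before a start site, 5′ to 3′, with every match to CCNCNCCC on either strand in capitals. Matches may overlap one another. The windows are chr12:76710548-76710797 (minus strand) for Sptb, chr5:34573414-34573663 (plus strand) for Add1, chr6:86028431-86028680 (plus strand) for Add2 and chr4:132075314-132075563 (minus strand) for the Epb41 start site that lies farthest 5′.
Sptb: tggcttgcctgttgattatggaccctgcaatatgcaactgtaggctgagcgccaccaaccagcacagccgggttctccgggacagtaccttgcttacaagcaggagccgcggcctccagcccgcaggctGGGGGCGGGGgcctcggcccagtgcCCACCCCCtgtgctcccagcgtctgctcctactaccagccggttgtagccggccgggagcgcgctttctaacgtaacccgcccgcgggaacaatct
Add1: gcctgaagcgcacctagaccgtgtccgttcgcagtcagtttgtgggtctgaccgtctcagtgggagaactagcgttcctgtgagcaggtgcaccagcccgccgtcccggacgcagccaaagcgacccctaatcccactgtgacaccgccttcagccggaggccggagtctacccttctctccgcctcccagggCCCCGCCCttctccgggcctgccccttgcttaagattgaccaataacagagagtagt
Add2: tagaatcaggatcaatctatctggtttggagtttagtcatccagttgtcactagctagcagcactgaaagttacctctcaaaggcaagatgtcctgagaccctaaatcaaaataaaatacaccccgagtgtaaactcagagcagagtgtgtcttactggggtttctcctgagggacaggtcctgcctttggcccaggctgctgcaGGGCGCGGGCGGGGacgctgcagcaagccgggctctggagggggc
Epb41: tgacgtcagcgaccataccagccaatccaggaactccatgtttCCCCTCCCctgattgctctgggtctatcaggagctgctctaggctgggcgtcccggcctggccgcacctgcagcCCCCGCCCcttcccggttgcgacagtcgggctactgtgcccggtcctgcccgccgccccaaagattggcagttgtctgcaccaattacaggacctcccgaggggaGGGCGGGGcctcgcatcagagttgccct
The Sptb window held 3 matches, of which 2 overlap and the other, CCACCCCC, begins 96 bases before the start site. Add1 held 1 match, Add2 held 2 and this Epb41 window held 3. The other Epb41 windows, not shown, held 0 and 6 matches. Of the 6 windows 5 held at least 1 match, against 45.9% of 32851 promoter windows of the same length. With 3 of the 6 windows from Epb41, this is not a count of genes and is not read as an excess. Only the Sptb match CCACCCCC holds the letters CACCC, and the other matches fit the wider pattern CCNCNCCC alone. The GATA motif AGATAA, searched on both strands, was in none of the 6 windows and in 9.99% of all windows. A match describes letters only, and since the peak lists use build mm9 the windows were not laid over the peaks.

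All 5 listed genes had higher RNA coverage in erythroblasts than in progenitors, each by at least 2-fold, against 15.3% of all 5194 genes at least 2-fold higher and 13.2% at least 2-fold lower. Ank1 had the largest difference, Add2 and Sptb followed with nearly equal values, Add1 came next, and Epb41 was lowest, just past 2-fold. No replicate error is available to separate neighbours in this order. The median log2 difference of the 5 genes was 2.96, beside 0.03 over all genes. The values are the authors' coverage signal summed over the listed coding exons of 1 transcript per gene. They are not divided by length, so levels are compared between stages and not between genes, and the level of an exon also follows its length. Differences are log2((erythroblasts + 1) / (progenitors + 1)), and a gene is said to have risen where this is at least 1. In these bulk libraries more expressing cells and more RNA per cell cannot be told apart.

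The spectrin and ankyrin genes were examined first, since they form the net and its main anchor. Sptb, which encodes the beta chain of erythroid spectrin, had a summed coverage of 2756 in erythroblasts and 353 in progenitors, a log2 difference of 2.96. Ank1, whose product joins beta spectrin to the anion exchanger, had 817 in erythroblasts and 91.0 in progenitors, a log2 difference of 3.15. Of the 5194 genes 33 had a larger log2 difference than Ank1.

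The adducin genes encode 2 subunits that cap actin filaments and recruit spectrin to them. Add2, the beta subunit gene, had 674 in erythroblasts and 85.2 in progenitors, a log2 difference of 2.97. Add1, the alpha subunit gene, which many tissues use, had 279 in erythroblasts and 59.1 in progenitors, a log2 difference of 2.22. As ratios of the deposited sums, Add2 rose 7.92-fold and Add1 rose 4.72-fold. Without its exon of highest coverage, described below, the log2 difference of Add1 was 2.70.

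Epb41 encodes protein 4.1, which tightens the contact of spectrin with actin. It had 288 in erythroblasts and 142 in progenitors, a log2 difference of 1.01 at the edge of the 2-fold rule. The median of its exon log2 ratios was 0.96, under the rule. With a pseudocount of 5 the difference was 0.99, with the median gene set to no change 0.98, and with equal totals outside the globin genes 0.95, so its call depends on these choices. The other 4 genes stayed past the rule in every setting tried.

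**Figure D1:**
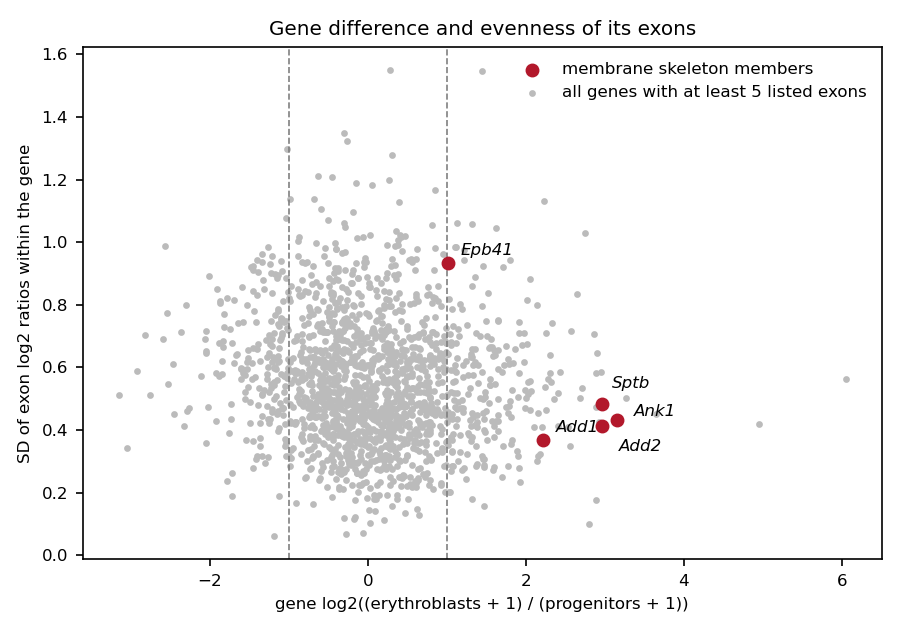
Each point is 1 of 1677 genes with at least 5 listed exons, with the gene's log2 difference of erythroblasts over progenitors on the x axis and the SD of its exon log2 ratios on the y axis. Dashed lines mark 2-fold. Sptb, Ank1, Add1 and Add2 lie to the right with SDs of 0.37 to 0.48, and Epb41 lies at the 2-fold line with an SD of 0.93.

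The difference was spread along the transcripts of Sptb, Ank1, Add1 and Add2, and was uneven along Epb41. The 5 genes had 99 listed exons, of which 97 were higher in erythroblasts, 2 were lower, and 92 were at least 2-fold higher, against 15.5% of exons over all genes. In Sptb (31 exons), Ank1 (31), Add1 (12) and Add2 (13) every exon was at least 2-fold higher. Over the 1677 genes with at least 5 listed exons, 18.2% had every exon higher in erythroblasts by any amount. The share with every exon at least 2-fold higher was not counted. With gene log2 differences of 2.22 or more, such exon counts are largely set by the gene difference. The exon SDs of these 4 genes were larger than those of 17.4% (Add1) to 40.1% (Sptb) of the 1677 genes. The 1 added to each value narrows ratios of low exons. Without it the SDs were 0.58 in Sptb, 0.56 in Ank1, 0.47 in Add1 and 0.52 in Add2. The SDs of all genes were not recomputed in this way. Few exons reached 5 in both columns in Ank1 (5 exons, SD 0.46), Add1 (2, SD 0.62) and Add2 (6, SD 0.29). In Sptb 25 did, with an SD of 0.42. Exons of a gene share their libraries and are not replicates, so these counts describe evenness within a gene. The table lists only exons at or above 0.8 in both columns, so an exon below that in either stage is missing from all sums and counts.

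The numbers in the exon names show gaps within the listed range, not how complete each gene is. Sptb had every exon from number 4 to number 34 and none listed below 4, and Add2 began at number 2. Exons outside the listed range cannot be counted. Between the lowest and the highest number listed, 11 of 42 were missing in Ank1, 2 of 14 in Add1, 1 of 14 in Add2 and 4 of 16 in Epb41. Exons are counted below from 1 at the 5′-most listed exon, and positions are those in the exon names in build mm9.

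Exon values of Sptb spanned 17.1 to 382 in erythroblasts, with a median of 82.2, and 1.5 to 49.7 in progenitors, with a median of 9.62. The ratio of the stages varied much less than the values, and the SD of the exon log2 ratios was 0.48. The highest coverage in both stages was in exon 13 (position 77721643 on chromosome 12), with 382 in erythroblasts and 49.7 in progenitors. Exon 15 (position 77713551) followed, with 338 in erythroblasts and 40.5 in progenitors. These 2 exons rose 7.67-fold and 8.34-fold, close to the gene's 7.82-fold. The lowest log2 ratio, 1.94, was in the 3′-most listed exon (35.6 in erythroblasts and 8.53 in progenitors) and the highest, 3.79, in exon 28 (44.6 in erythroblasts and 2.29 in progenitors).

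Ank1 exons had 7.77 to 69.2 in erythroblasts, with a median of 19.8, and 0.825 to 9.06 in progenitors, with a median of 2.23. The lowest progenitor exon lay close to the floor of 0.8, under which exons are not listed. The lowest log2 ratio, 1.73, was in exon 4 (14.7 in erythroblasts and 3.71 in progenitors). The highest log2 ratio, 3.57, was in exon 27 (59.9 in erythroblasts and 4.11 in progenitors). This rank depends on the 1 added to each value. As a plain ratio exon 8 rose most, 20.2-fold (19.6 in erythroblasts and 0.969 in progenitors), and exon 27 rose 14.6-fold. The SD over exons was 0.43.

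The 2 listed transcripts of Ank1 differ at exon 27. The transcripts shared 29 exons with equal values. At position 24242569 on chromosome 8 one transcript has a long exon, with 101.6 in erythroblasts and 6.56 in progenitors, where the other has a short exon and a following exon at position 24243034. The short exon had 59.9 in erythroblasts and 4.11 in progenitors, and the following exon had 16.0 in erythroblasts and 0.825 in progenitors. If the long exon ends where the following exon ends, the stretch between the short exons had 25.7 in erythroblasts and 1.62 in progenitors. That stretch held 25.3% of the long exon's coverage in erythroblasts and 24.7% in progenitors, so the part that only the long form contains kept nearly the same share while the region rose 15.5-fold.

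**Figure D2:**
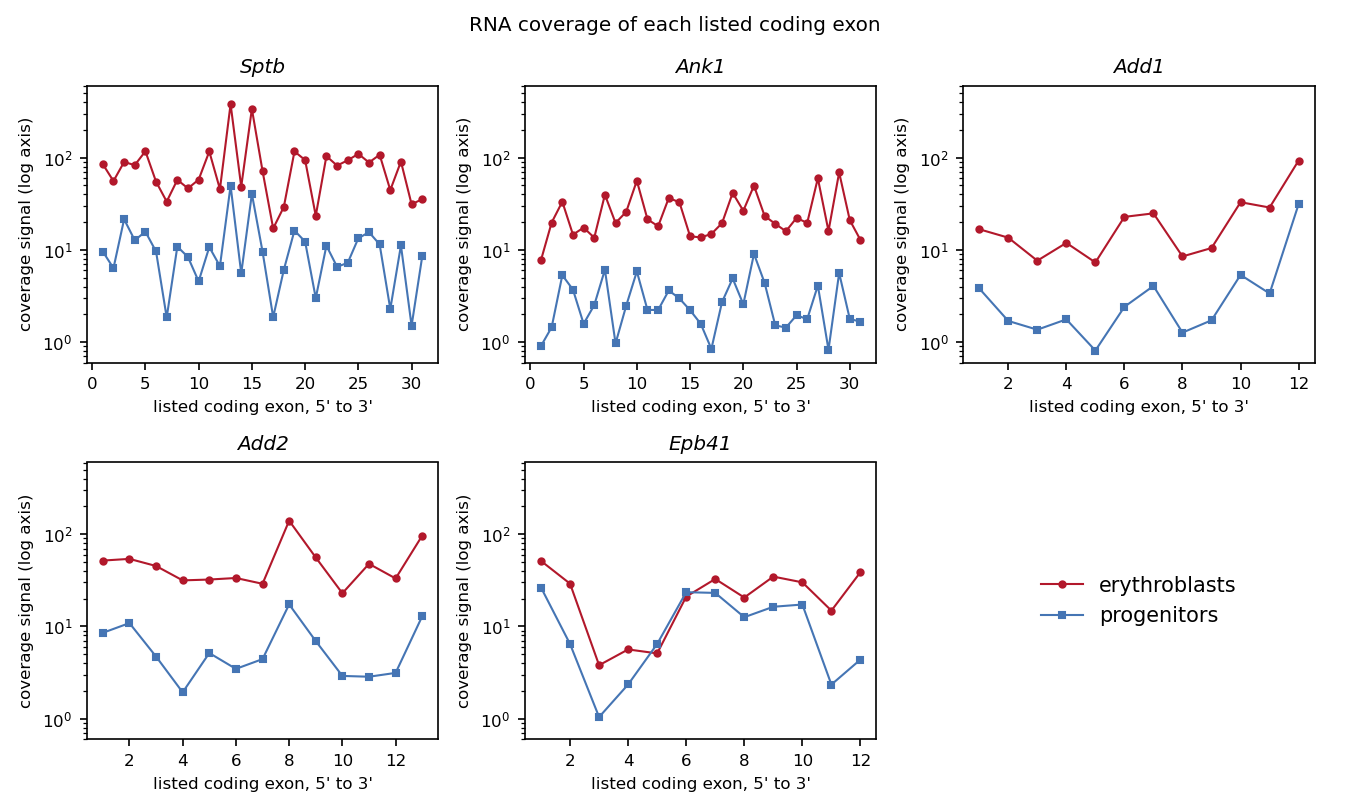
Coverage signal (log axis) of every listed coding exon, 5′ to 3′, for the 5 genes, with erythroblasts in red circles and progenitors in blue squares. The red line lies above the blue line at every exon of Sptb, Ank1, Add1 and Add2, and the lines cross within Epb41 at exons 5 and 6.

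In Add2, alone among the 5 genes, the lowest erythroblast exon, at 22.9, was above the highest progenitor exon, at 17.3. The share of all genes in which this holds was not counted. Since exon values follow exon length, it also depends on how much these lengths vary, and is not read as a larger difference in Add2. The coverage peak of both stages was exon 8 (position 86056041 on chromosome 6), with 140.2 in erythroblasts and 17.3 in progenitors. The log2 ratios ran from 2.21 in exon 2 (54.0 in erythroblasts and 10.9 in progenitors) to 3.66 in exon 11 (47.7 in erythroblasts and 2.85 in progenitors), and their SD was 0.41.

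Add1 had an even rise with 1 exception at its 3′ end. Exons 1 to 11 rose between 4.38-fold and 9.46-fold, and together had 186 in erythroblasts and 27.7 in progenitors, a ratio of 6.71. Exon 12 (position 34973119 on chromosome 5) had 93.3 in erythroblasts and 31.4 in progenitors, a ratio of 2.97. It was not listed for at least 1 of the 3 listed transcripts. This exon alone held 33.4% of the gene's coverage in erythroblasts and 53.2% in progenitors. Its log2 ratio of 1.54 was the lowest of the gene, and the highest, 2.80, was in exon 6 (22.8 in erythroblasts and 2.42 in progenitors).

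Epb41 had the least even exons, and its SD of 0.93 was larger than that of 95.4% of the 1677 genes, whose median was 0.53. Exons 1 to 4 had log2 ratios of 0.93 to 2.01, exons 5 to 10 of -0.29 to 1.04, and exons 11 and 12 of 2.24 and 2.89. The 3′-most exon, exon 12 (position 131482425 on chromosome 4), had 38.8 in erythroblasts and 4.37 in progenitors, an 8.87-fold rise. Its neighbour, exon 11, had 14.8 in erythroblasts and 2.34 in progenitors, a 6.34-fold rise. At the other end exon 2 (position 131559500) had 29.1 in erythroblasts and 6.44 in progenitors. Exons 5 and 6 were the 2 of all 99 exons that were lower in erythroblasts.

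Exon 5 (position 131531453) had 5.10 in erythroblasts and 6.46 in progenitors, a log2 ratio of -0.29, and exon 6 (position 131530599) had 21.0 in erythroblasts and 23.5 in progenitors, a log2 ratio of -0.15. Exons 7 to 10, between these and the 3′ end, were higher in erythroblasts by 1.42-fold, 1.63-fold, 2.12-fold and 1.74-fold. Exon 1, at the 5′ end of the listed exons, had 51.3 in erythroblasts and 26.4 in progenitors, and exons 3 and 4 had 3.80 and 5.63 in erythroblasts and 1.04 and 2.35 in progenitors. Without exons 5 and 6 the summed coverage was 262 in erythroblasts and 112 in progenitors, a ratio of 2.33. Of the 3 listed transcripts, the one summed here has exons 1 to 12, and another has exons 3 to 12 but neither exon 1 nor exon 2. The exons of the remaining transcript were not compared. Epb41 RNA is known to be alternatively spliced in erythroid cells, and reads of single transcripts were not separated here.

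**Figure D3:**
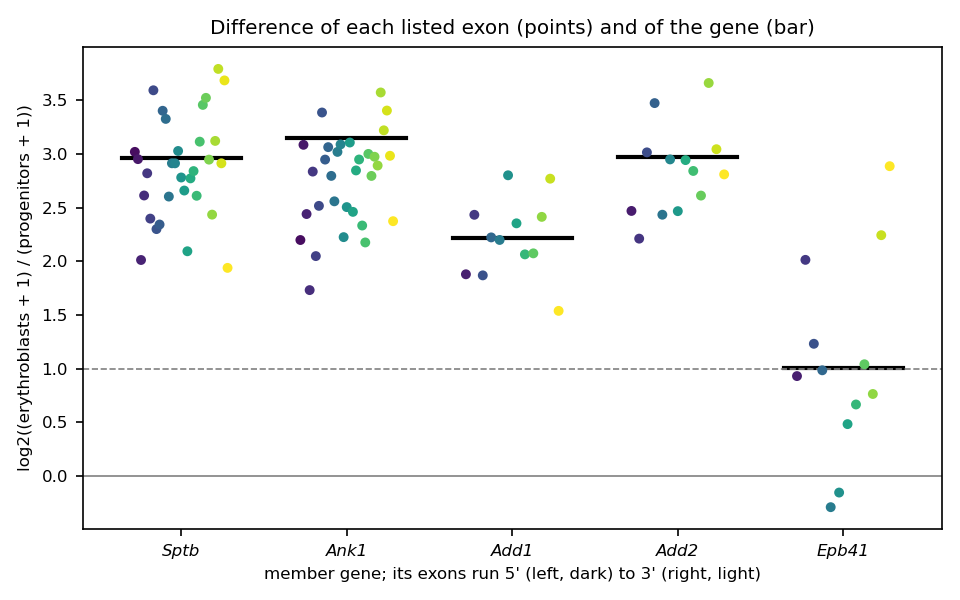
Log2((erythroblasts + 1) / (progenitors + 1)) of every listed exon (points, 5′ dark and left to 3′ light and right) and of the summed gene (black bar) for the 5 genes. The dashed line marks 2-fold and the solid grey line no difference. All exons of Sptb, Ank1, Add1 and Add2 lie above 1.5, and those of Epb41 run from -0.29 to 2.89.

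Each gene was also split into 3 runs of exons, with 10 exons in the outer runs of Sptb and Ank1 and 4 in those of Add1, Add2 and Epb41. In all 5 genes the median exon log2 ratio of the 5′ run was below that of the 3′ run, as was so in 46.3% of the 1677 genes. The medians were 2.72 in the 5′ run and 3.12 in the 3′ run of Sptb, and 2.68 in the 5′ run and 2.98 in the 3′ run of Ank1. In the adducin genes the runs lay closer, with 2.05 in the 5′ run and 2.25 in the 3′ run of Add1, and 2.74 in the 5′ run and 2.93 in the 3′ run of Add2. In Epb41 the middle run had a median of 0.17, below the 1.11 of the 5′ run and the 1.64 of the 3′ run. Across exons the Pearson correlation of log2 values was 0.87 in Sptb (31 exons), 0.79 in Ank1 (31), 0.95 in Add1 (12), 0.84 in Add2 (13) and 0.73 in Epb41 (12). The median over the 1677 genes was 0.82, above the values of Ank1 and Epb41 and below those of the other 3 genes. These correlations are across exons that share both libraries and differ in length, and they are given as a description.

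The wider membrane and skeleton list held 40 further genes, of which 20 were listed. Of these 12 rose, 2 fell and 6 did neither, beside 15.3% higher and 13.2% lower over all genes. The median log2 difference of the 20 genes was 1.28, beside 0.03 over all genes and 2.96 for the 5 genes above. Among those with the highest mean coverage, Atp2b4, the gene of a calcium pump of the plasma membrane, rose to 328 in erythroblasts, against 80.2 in progenitors. Slc2a1, the glucose transporter gene, rose to 144 in erythroblasts, against 45.1 in progenitors. The actin gene Actb had 994 in erythroblasts and 903 in progenitors, and the capping protein gene Capzb had 79.1 in erythroblasts and 70.1 in progenitors, both under the rule. Piezo1, a mechanically gated channel gene, fell to 54.0 in erythroblasts, against 166 in progenitors, with none of its 30 exons higher. The other gene that fell was Pip5k1c, a phosphoinositide kinase gene, with 3.72 in erythroblasts and 12.1 in progenitors, a log2 difference of -1.48. With a pseudocount of 5 the difference of Pip5k1c was -0.97 and no longer past the rule. Add3, the gamma adducin gene, rose to 43.5 in erythroblasts, against 16.6 in progenitors, a log2 difference of 1.34. Pip5k1c and Add3 were named after their values were seen.

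Markers of the stages and of other cells were looked up among the listed genes. Since only exons at or above 0.8 in both columns are listed, a marker confined to 1 stage cannot appear. This is therefore only a partial check of the stage labels. Of 8 erythroid markers 5 were listed and higher in erythroblasts (Hba-a1, Hbb-bt, Tfrc, Klf1 and Gata1), and the other 3 have no listed value. Tfrc, the gene of the CD71 antigen used in the sort, had 148 in erythroblasts and 21.3 in progenitors, and Klf1 had 145 in erythroblasts and 73.9 in progenitors, a log2 difference of 0.96. Of 17 markers of hepatocytes, macrophages, granulocytes, megakaryocytes, endothelial and stromal cells and early progenitors, 1 was listed, the megakaryocyte gene Gp1ba, with 31.6 in erythroblasts and 9.35 in progenitors. The other 16 have no listed value, and the part of other cells in the differences was not tested.

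EKLF peaks within 100 kb of listed exons were found at 4 of the 5 genes in the erythroblast list and at all 5 in the progenitor list. Over all genes 95.3% had an erythroblast peak and 82.3% a progenitor peak in this window, so presence alone sets the 5 genes apart in neither list. The erythroblast list held 24 peaks near these genes, 6 each at Sptb, Ank1, Add1 and Epb41, and none at Add2. The median over all genes was 3, and 17% of genes had at least 6. The region searched grows with the span of the listed exons, from 29.1 kb in Add1 to 80.4 kb in Epb41 for these 4 genes. The genes were not matched for span in either list, so the counts are not read as an excess. The progenitor list held 10 peaks near the 5 genes, 3 at Sptb, 2 each at Ank1, Add1 and Epb41, and 1 at Add2, where the median over all genes was 2. None of the 5 had 6 or more progenitor peaks, against 2.98% of all genes. The erythroblast list has 19353 peaks in all and the progenitor list 7358, so the counts are not compared between lists. Enrichment is the authors' own value, rank is the order of a peak by the authors' -log10 p within its list, and both are read within 1 list. Several peaks lay nearer a listed exon of a neighbouring gene, 7 of the 24 in the erythroblast list and 2 of the 10 in the progenitor list. Upstream, here and below, means 5′ of the first listed coding exon. Since untranslated exons are not listed, such a peak may lie within the gene or at its start site, which was not tested.

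**Figure D4:**
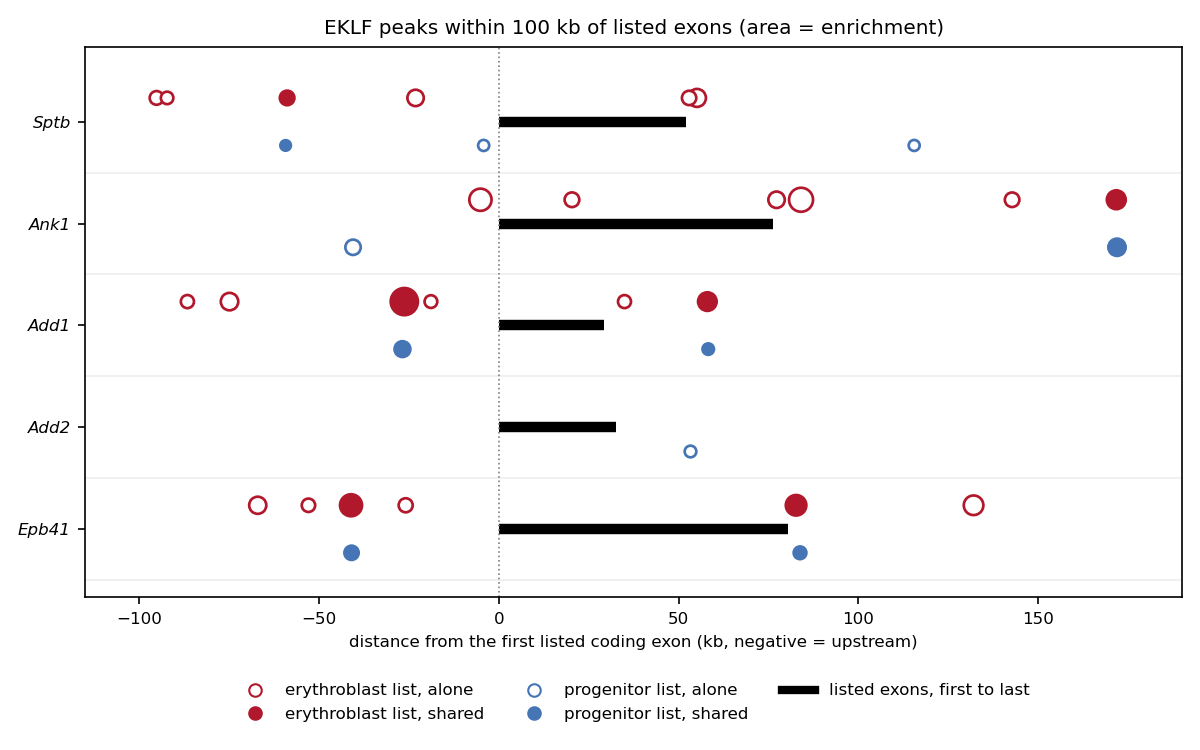
EKLF peaks within 100 kb of listed exons, by distance from the first listed coding exon (x axis, kb), with erythroblast peaks above and progenitor peaks below the black bar that spans the listed exons of each gene. Filled circles overlap a peak of the other list and open circles do not, and the area of a circle is the authors' enrichment. Only Add2 has no erythroblast peak. The peak nearest a listed exon is in the erythroblast list alone at Sptb, Ank1 and Add1, and is shared at Epb41.

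At Ank1 the nearest peaks were in the erythroblast list alone. One on chromosome 8 from 24167951 to 24170287 (build mm9 for all peaks) lay 5.14 kb upstream of the first listed exon, with an enrichment of 22.7 and rank 751 of 19353. Another, from 24195742 to 24198583, covered listed exons inside the gene with an enrichment of 9.92, and it was the only one of the 24 to cover an exon position of these genes. Past the last listed exon, a peak from 24252653 to 24255449 lay 1.02 kb from it with an enrichment of 12.4. A peak from 24259463 to 24261359 lay 7.83 kb past the last listed exon with an enrichment of 26.5 and rank 415. The progenitor list had none of these. Its strongest peak by rank near Ank1, from 24132989 to 24134853, lay 40.6 kb upstream with an enrichment of 10.9 and rank 351 of 7358, and no erythroblast peak overlapped it. The site that both lists shared, 95.5 kb past the last listed exon in erythroblasts, lay 1.92 kb from an exon of Gins4. Its enrichment was 16.4 in the erythroblast list and 13.7 in the progenitor list, where it was the highest of the 10 peaks near the 5 genes.

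At Sptb, as at Ank1, both lists had peaks of their own. The nearest to the first listed exon was a progenitor peak on chromosome 12 from 77755006 to 77757193, 4.24 kb upstream, with an enrichment of 5.65 and rank 3692, and no erythroblast peak overlapped it. The erythroblast peak nearest the first listed exon lay 23.2 kb upstream, from 77773941 to 77775764, with an enrichment of 12.3. Past the last listed exon, 2 erythroblast peaks lay 0.854 kb and 3.03 kb from it. Both were in that list alone, and they were the peaks nearest any listed exon of Sptb. The farther one, from 77692729 to 77695681, had the highest enrichment at the gene, 14.9. No exon number below 4 is listed for Sptb, so whether these peaks lie past its 3′ end is not known. The site shared by both lists lay 58.9 kb upstream in the erythroblast list, with an enrichment of 9.78 in the erythroblast list and 5.08 in the progenitor list.

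At Add1 the strongest site was shared. It lay 26.3 kb upstream of the first listed exon, on chromosome 5 from 34915297 to 34917681 in the erythroblast list, with an enrichment of 34.1 and rank 275, the highest enrichment of the 24 peaks. The progenitor peak there ran from 34915863 to 34917162, with an enrichment of 11.5 and rank 1364. The erythroblast peak nearest the first listed exon was another one, 18.9 kb upstream with an enrichment of 7.44. The peak nearest any listed exon, 5.81 kb past the last, was in the erythroblast list alone. It lay 0.668 kb from an exon of Mfsd10. The second shared site covered a listed exon of the neighbour Nop14.

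Epb41, the gene with the smallest difference, also had its strongest sites in both lists. An erythroblast peak on chromosome 4 from 131475928 to 131480220 lay 2.21 kb past the 3′-most listed exon, with an enrichment of 19.4 and rank 163, and the progenitor peak that it overlapped, from 131475771 to 131479122, had an enrichment of 7.45 and rank 771. The second shared site lay 41.1 kb upstream of the first listed exon, from 131604006 to 131606180 in the erythroblast list, with an enrichment of 22.3. The progenitor peak there had 9.39, the highest of the gene in that list. The erythroblast peak nearest the first listed exon, 25.9 kb upstream, had an enrichment of 9.09 and was in that list alone.

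Add2, with a log2 difference of 2.97, had the fewest peaks. Its single peak was in the progenitor list alone, on chromosome 6 from 86088898 to 86090549, 20.4 kb past the last listed exon, with an enrichment of 6.26 and rank 7332 of 7358, near the bottom of the list. Whether EKLF sites lie beyond the window was not analysed here.

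Of the 24 erythroblast peaks 6 overlapped a progenitor peak and 18 did not, where 30.9% of the whole erythroblast list overlapped one. Of the 10 progenitor peaks 6 overlapped an erythroblast peak and 4 did not, where 80.9% of the whole progenitor list overlapped one. With so few peaks, neither count is read as differing from its list. The shared sites were 2 at Add1, 2 at Epb41 and 1 each at Sptb and Ank1. Within 5 kb of a listed exon position, 3 of the 5 genes had an erythroblast peak (Sptb, Ank1 and Epb41) and 2 had a progenitor peak (Sptb and Epb41), against 45.9% and 30.7% of all genes. The median enrichment near the 5 genes was 12.4 in the erythroblast list, whose median over all peaks was 9.31, and 6.86 in the progenitor list, whose median over all peaks was 7.03.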

How the data were processed

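RNA and EKLF ChIP-seq libraries came from sorted fetal liver cells. Per the labels' protocols each population was sorted at least 3 times, RNA reads were paired and 51 bp long, and the ChIP libraries held fragments near 200 bp. Build mm9 is taken from the submitters' processing notes. No aligner, counter or peak caller was named (not given in the sources used here).

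Although named RPKM, the deposited table holds a coverage signal per coding exon: in each column 100% of values lay within 0.01 of a whole multiple of 1 step, with 2151 steps per unit in erythroblasts and 1835 in progenitors, whatever the exon. Library depth is unknown, as is whether the erythroblast column pools both libraries, so values carry no SD or n. The planned model needs a column per library and was replaced by the 2-fold rule. In the deposited peak lists column 7 is read as the authors' ratio, a fold enrichment, and column 8 as the authors' -log10 p, by which peaks are ranked, the most significant first.

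Of 6853 transcripts 6772 matched a symbol through RefSeq (GRCm38.p6). For each gene the transcript with the most listed exons was kept and its exons summed, and 5194 genes had at least 1 in at least 1 column. A peak is called shared if 1 bp or more of it lies in a peak of the other list. Distances run from the nearest peak edge to the position in an exon name, which is 1 end of the exon. All 5 listed genes, their highest and lowest exon ratios, the nearest and the most enriched peaks and the 6 best covered further genes are named by rule, except for an item that is not reported here. The genes, lists and rules were chosen with earlier results of these data known. The steps were tested on simulated data. Python 3.11.15, pandas 2.3.3, numpy 2.4.6, scipy 1.17.1 and matplotlib 3.10.9 were used.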

Additional observations from a re-analysis of the deposited data

How the results depend on the processing

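Of 45 recomputed differences of the 5 genes under 9 settings, 41 stayed on their side of the 2-fold rule, none reversed, and the 4 that did not were those of Epb41 (0.95 to 1.02 over all settings). The log2 differences ran from 2.90 to 2.97 for Sptb, 2.85 to 3.19 for Ank1, 2.15 to 2.70 for Add1 and 2.84 to 2.98 for Add2. Over 5194 genes 794 rose and 685 fell, against 512 and 411 with a pseudocount of 5. With equal totals outside the globin genes 734 of 5191 genes rose and 754 fell. Without the highest exon of each gene, which leaves 3625 genes, 536 rose (14.8%, against 15.3%) and 349 fell (9.63%, against 13.2%). The last setting, and leaving out peaks nearer another listed gene, were chosen after seeing the data. With a pseudocount of 5, 1 gene of the wider list fell instead of 2, since Pip5k1c was no longer called. In that setting 11 rose instead of 12, since the log2 difference of Cd47 was 0.78. With the median of exon log2 ratios Cd47 was at 0.38, while the count stayed at 12 since another gene passed the rule. Cd47 was named after its values were seen.

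Peak counts follow the window. Within 5 kb the erythroblast list had 5 peaks, 1 of them shared, and the progenitor list 2 peaks at 2 genes, 1 of them shared. Within 20 kb these were 9 peaks with 1 shared, and 2 peaks at 2 genes with 1 shared. Within 50 kb the erythroblast list had 14 peaks. Among the better ranked 50% of each list the progenitor list had 6 peaks at 3 genes. Other definitions of a shared peak changed no count by over 1.5 times. No paired analysis was possible because the table has 1 column per stage, and leaving out an erythroblast library was not run for the same reason.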
